A study of Homo sapiens with 3 samples.

Results

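Glutamine and aspartate metabolism was followed through 9 genes, taken from the deposited counts by symbol: GLS2, GLUL, GLUD1, GOT1, GOT2, GPT2, ASNS, PC and CAD. They are 9 of 22825 genes counted, and the value of each was that of its transcript record with the largest total, among 19 records. RNA was sequenced from MDA-MB-231, a human breast cancer cell line, transfected on 2 occasions 24 h apart with 50 nM control siRNA and processed 48 h after the second. A p53 change, R280K, is named in the labels. The labels place all 3 libraries in this 1 group as biological replicates (n = 3), and no other arm is analysed here, so no effect of treatment was tested. Everything below describes the control state of 1 line under lipid transfection and the spread between its replicates.

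Glutamine is the main nitrogen carrier of proliferating cells. Glutaminase releases its amide as ammonia and leaves glutamate, and glutamine synthetase runs the reverse reaction. Glutamate then yields 2-oxoglutarate for the citric acid cycle, through glutamate dehydrogenase or through transaminases that pass its amino group to oxaloacetate or pyruvate. The aspartate made this way feeds asparagine and pyrimidine synthesis, and pyruvate carboxylase gives a second route to the oxaloacetate that it is made from.

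The counts summed over genes were 68670363, 84888346 and 54517311 in replicates 1, 2 and 3. Different genes are compared in TPM, which allows for transcript length as well as library size, and a single gene is compared between libraries in CPM, which allows for library size alone. The line's defining markers went with its label. The mesenchymal gene VIM stood at 4392 ± 157 TPM and AXL at 566 ± 40.4 TPM, the oestrogen receptor gene ESR1 at 0.0116 ± 0.00459 TPM and the E-cadherin gene CDH1 at 0.583 ± 0.221 TPM. Of markers of other cell types, PTPRC (leukocytes) stood at 0.495 ± 0.207 TPM, PECAM1 (endothelium) at 1.02 ± 0.171 TPM, and DCN (fibroblasts) had no count.

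GLUD1 and GOT2, both enzymes of mitochondria that act on glutamate, were the most abundant of the 9 transcripts, and the glutaminase gene GLS2 was the scarcest. With counts added up over all records of a gene ASNS came first, at 172 TPM, ahead of GLUD1 at 122 TPM. GLUD1 has a single record, whereas the several ASNS records held similar counts and can share reads. Such sums, here and below, can count the same reads repeatedly and raise genes with several records relative to the others. GLUD1 averaged 236 ± 3.11 TPM and GOT2 167 ± 2.98 TPM (SD, n = 3, here and below). PC, ASNS, GOT1, GLUL and CAD lay within a narrow band, from 72.1 ± 3.36 TPM for PC to 44.5 ± 2.06 TPM for CAD. GPT2 averaged 20.5 ± 0.494 TPM and GLS2 0.954 ± 0.0940 TPM. The median of the 9 means was 51.5 TPM, against 17.9 TPM over the 14469 genes tested, and all but GLS2 lay above that median. In the order of levels, 7 of the 8 neighbouring pairs had ranges over the libraries that did not overlap. GLUL and CAD did overlap, and between ASNS and GOT1 the gap was narrow, since the lowest ASNS library (54.5 TPM) was just above the highest GOT1 library (54.01 TPM). These were different libraries. In replicates 1, 2 and 3 ASNS stood at 54.5, 62.1 and 63.5 TPM against 50.1, 50.3 and 54.01 TPM for GOT1. Neighbouring genes were measured in the same 3 libraries, too few for an exact paired test to reach a low p, so the order is a description.

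**Figure D1:**
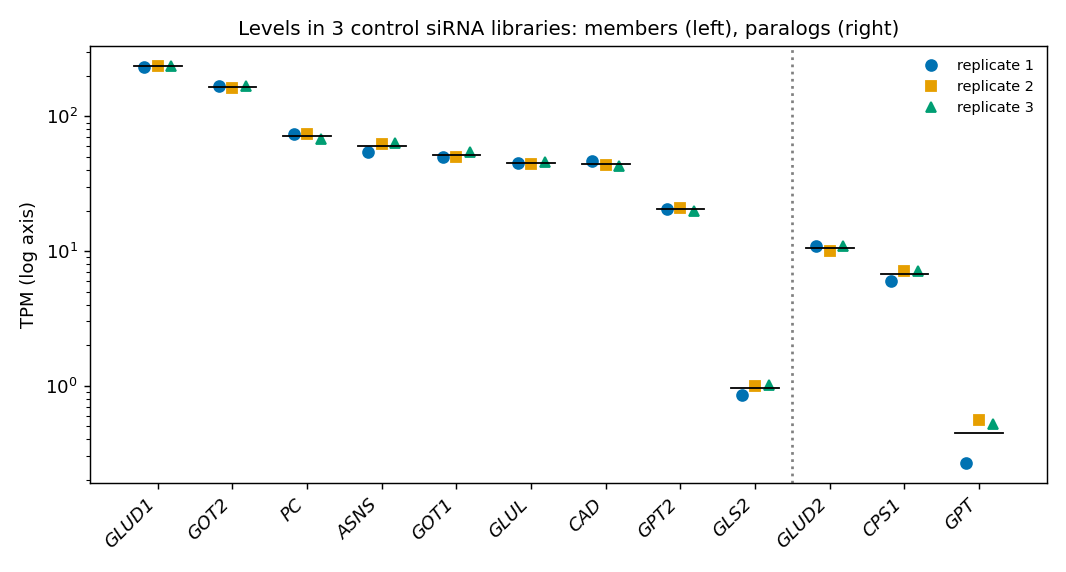
TPM on a log axis in each of the 3 control siRNA libraries (symbols) with the mean (line), for the 9 genes on the left and 3 of their paralogs on the right. GLUD1 and GOT2 lie above 160 TPM in every library, and GLS2 lies between 0.846 and 1.02 TPM.

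GLS2 (Entrez gene 27165, chromosome 12), known as the liver-type glutaminase, had 66, 97 and 63 counts in replicates 1, 2 and 3, or 0.846, 0.994 and 1.02 TPM. Its mean TPM was at percentile 10.0 of the genes tested, and no library exceeded 1.02 TPM. The GLS2 count is limited by overlap with another gene. Of the 2623 bases of its transcript, 1305 (49.8%) match transcripts of SPRYD4, a protein-coding gene on the opposite strand, with at least 95% identity over at least 100 bases. SPRYD4 itself had 448, 524 and 319 counts. Whether the counting used strand is not given in the sources used here, so reads of the genes in the shared stretch cannot be told apart.

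GLUL (2752, chromosome 1) encodes glutamine synthetase, which makes glutamine from glutamate and ammonia. It stood at 44.7, 44.4 and 46.2 TPM in replicates 1, 2 and 3. In CPM it was the tightest of the 9 genes, with 2.14% between its lowest and highest library. The 3 GLUL records held nearly equal counts, the lowest of them 97.2%, 97.4% and 97.9% of the largest. No other gene's transcript matched that of GLUL over at least 100 bases at 95% identity or more, although processed pseudogenes such as GLULP4 matched at 93.1% over 1124 bases.

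GLUD1 (2746, chromosome 10), the mitochondrial enzyme that removes ammonia from glutamate to leave 2-oxoglutarate, was the highest of the set by its largest record. It stood at 232, 238 and 237 TPM in replicates 1, 2 and 3, percentile 94.1 of the genes tested. GLUD2, an intronless copy on chromosome X, stood at 10.9, 10.1 and 10.9 TPM. The log2 ratio of GLUD1 to GLUD2 was 4.48 ± 0.08, and the libraries did not overlap. The coding sequences bear on how far those counts can be assigned. Both genes have 1674 coding bases, of which 40 differ, an identity of 97.6%. In 25.3% of the 100-base windows along them, the length of 1 read, there was no difference at all, and in 68.7% at most 2. Coding bases 136 to 235 are the first window that holds the average number of differences, rounded, and they are shown from the GENCODE 29 transcripts, with the differing bases in capitals.
GLUD1: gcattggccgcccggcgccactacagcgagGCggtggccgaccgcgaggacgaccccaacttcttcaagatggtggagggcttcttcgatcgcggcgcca
GLUD2: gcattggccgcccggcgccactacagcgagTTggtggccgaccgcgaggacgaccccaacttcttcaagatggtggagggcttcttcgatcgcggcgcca
A read from such a window carries 2 bases that mark its gene. GLUD2 had 805, 933 and 638 counts, against 20969, 26848 and 16972 for GLUD1, and the share of the GLUD2 counts that came from GLUD1 was not tested. A further overlap is with SHLD2 (FAM35A in the files), which matches 466 of the 3039 GLUD1 bases on the opposite strand. FAM35A was itself a gene with 3203, 3737 and 2777 counts.

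Of the transaminases, which move the amino group of glutamate, the mitochondrial aspartate form exceeded the cytosolic one. GOT2 (2806, chromosome 16) stood at 169, 163 and 168 TPM in replicates 1, 2 and 3, and GOT1 (2805, chromosome 10) at 50.1, 50.3 and 54.01 TPM. These enzymes exchange aspartate and oxaloacetate on either side of the inner mitochondrial membrane and are the transaminase steps of the malate-aspartate shuttle. The log2 ratio of GOT2 to GOT1 was 1.70 ± 0.06, a 3.24-fold difference. The libraries of GOT2 and GOT1 did not overlap. At the thresholds used for GLS2, opposite-strand transcripts of other genes match 651 of the 2923 GOT1 bases (22.3%). For GOT2 they match 166 of 2462 bases (6.74%). Reads of these stretches cannot be told apart without the strand setting. GOT1L1, a paralog known from testis, had no count in any library, which allows up to 0.0877, 0.0708 and 0.110 CPM (3 read pairs, taking each pair as 2 counts; counting error only). GPT2 (84706, chromosome 16), the mitochondrial alanine transaminase, stood at 20.7, 20.8 and 19.9 TPM. Its cytosolic paralog GPT had only 15, 39 and 23 counts, or 0.268, 0.556 and 0.518 TPM. The log2 ratio of GPT2 to GPT was 6.27, 5.23 and 5.26 in replicates 1, 2 and 3 (5.59 ± 0.59), and replicate 1, with 15 GPT counts, stood apart. It was 6.56 with counts added up over records. For both transaminase pairs the mitochondrial transcript was thus the higher in 3 of 3 libraries.

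CAD (790, chromosome 2) joins the first 3 enzymes of pyrimidine synthesis in 1 protein, which takes up glutamine and aspartate. It stood at 46.8, 43.4 and 43.1 TPM in replicates 1, 2 and 3. The later steps were lower, with DHODH at 8.94 ± 1.12 TPM and UMPS at 9.17 ± 0.195 TPM. The UMPS record with the largest total, used here, is of the non-coding RefSeq type and 6738 bases long, so its level is uncertain. The log2 ratio of CAD to DHODH was 2.32 ± 0.23 and to UMPS 2.28 ± 0.10. These sizes depended on the settings: the ratio to UMPS was 0.74 with counts added up over records, and that to DHODH 3.31 with the longest transcript lengths. CPS1, the related mitochondrial synthetase that serves the urea cycle in liver, stood at 6.02, 7.06 and 7.08 TPM. The log2 ratio of CAD to CPS1 was 2.73 ± 0.20, with no overlap between libraries, and 1.29 with counts added up over records.

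PC (5091, chromosome 11), the biotin enzyme of mitochondria that carboxylates pyruvate to oxaloacetate, stood at 74.5, 73.4 and 68.2 TPM in replicates 1, 2 and 3. PCK2, which runs from oxaloacetate towards phosphoenolpyruvate in mitochondria, stood at 22.4, 24.4 and 21.8 TPM, and the log2 ratio of PC to PCK2 was 1.66 ± 0.07, or 2.55 with counts added up over records. The cytosolic form PCK1 had 0, 0 and 4 counts. The 3 records of PC carried nearly the same counts, the smallest 98.0%, 98.3% and 98.5% of the largest.

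ASNS (440, chromosome 7) makes asparagine from aspartate, with the amide of glutamine as nitrogen donor. It stood at 54.5, 62.1 and 63.5 TPM in replicates 1, 2 and 3, and replicate 1 was below the others. ASRGL1, an enzyme that splits asparagine, was at 3.04, 2.80 and 3.63 TPM, and the log2 ratio of ASNS to ASRGL1 was 4.26 ± 0.19, or 5.74 with counts added up over records. ASNS has 6 records, more than any other of the 9 genes, and they fell into 2 sets. Of these, 4 held 94.9% or more of the largest count in every library, and the pair NM_001178076 and NM_001178077 held 79.4% to 83.2%. A same-strand transcript of another annotated gene, AC079781.5, is identical to 1888 of the 2356 bases of the ASNS transcript. Reads of that stretch cannot be told apart by sequence, and no counts were found under the symbol AC079781.5. Processed pseudogenes also matched, such as AC134878.1 at 95.1% over 243 bases.

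**Figure D2:**
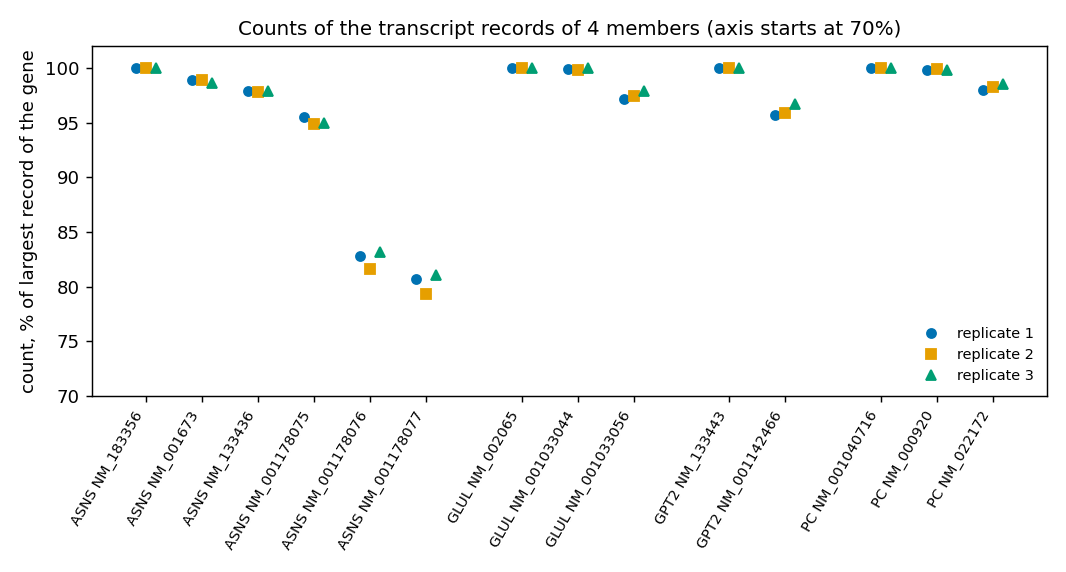
Count of each transcript record as a percent of the largest record of its gene, in each of the 3 libraries (symbols), for the 4 genes with several records. The axis starts at 70%. The ASNS records NM_001178076 and NM_001178077 lie between 79.4% and 83.2%, and all other records lie at 94.9% or above.

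ASNS is known as a target of ATF4, the transcription factor of the amino acid response, which binds composite C/EBP-ATF elements. The promoters of the 9 genes were searched for the core of that element, TGATGNAA, on both strands. In RefSeq windows on GRCh38.p14, from 250 bases before to 50 after a gene start, 12 windows covered 8 of the 9 genes, and 2 of them held the motif. It was present in 3.62% of all 35116 windows. The matches are shown with 20 bases on either side and the motif in capitals, written along the strand of the gene.
ASNS: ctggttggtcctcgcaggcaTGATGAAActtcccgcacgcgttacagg
GOT1: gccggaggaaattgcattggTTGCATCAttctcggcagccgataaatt
The ASNS stretch is chr7:97872449-97872496 on the minus strand, and its motif begins 68 bases before the start. The GOT1 stretch is chr10:99430795-99430842, also on the minus strand, and holds the motif as its reverse complement, from 198 bases before the start. A match describes these letters only.

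Differences between the 3 replicate libraries were small for every one of the 9 genes, and 3 of them, ASNS, PC and CAD, varied beyond counting noise. The test set an intercept-only edgeR fit, with each read pair counted as 1 observation, against a chi-square distribution and adjusted over all 14469 genes. It called 28.5% of all genes tested, so 3 of 9 is a share near the background. ASNS stood at 55.8, 64.1 and 64.2 CPM in replicates 1, 2 and 3, with 15.1% between lowest and highest (edgeR adjusted p = 1.98e-05). PC stood at 136, 135 and 123 CPM, lowest in replicate 3, with 10.5% between lowest and highest (edgeR adjusted p = 6.53e-05). CAD stood at 148, 138 and 135 CPM, highest in replicate 1, with 9.85% between lowest and highest (edgeR adjusted p = 0.000227). Each call rested on 1 library, since without replicate 1 the adjusted p was 0.982 for ASNS and 0.406 for CAD, and without replicate 3 it was 0.921 for PC. With every mate taken as an observation of its own, 5 of the 9 were called, GLUD1 and GOT1 being added, against 52.9% of all genes. None of the 9 was called when a coefficient of variation of 0.05 between cultures was allowed for, a setting that called 7 genes in all (0.0484%).

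The other 6 genes did not pass the test. GLUD1 ranged from 306 to 317 CPM (edgeR adjusted p = 0.103), GOT1 from 63.7 to 67.8 CPM (0.229), GPT2 from 34.1 to 36.4 CPM (0.441) and GOT2 from 176 to 181 CPM (0.556). GLUL ranged from 91.7 to 93.7 CPM (edgeR adjusted p = 0.801). GLS2 had the widest range of the 9, from 0.965 to 1.15 CPM or 19.2%, but on at most 97 counts (edgeR adjusted p = 0.809).

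Base composition moved with some of these differences. Across all genes tested, libraries drifted with the GC content of the transcript, and the fitted drift at 61.1% GC, that of PC, was 0.04, 0.03 and -0.07 on the log2 CPM scale in replicates 1, 2 and 3. PC itself deviated from its mean by 0.05, 0.04 and -0.09, and with the drift subtracted by 0.01, 0.01 and -0.02. With GC offsets in the fit PC was no longer called (edgeR adjusted p = 0.752), nor was CAD (57.7% GC, edgeR adjusted p = 0.0534). ASNS (47.0% GC) deviated by -0.13, 0.07 and 0.07 as measured and by -0.12, 0.07 and 0.05 with the drift subtracted, and it kept its call (edgeR adjusted p = 0.000161). GLUD1 was added to the calls under these offsets (edgeR adjusted p = 0.0328), which called 14.5% of all genes tested.

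**Figure D3:**
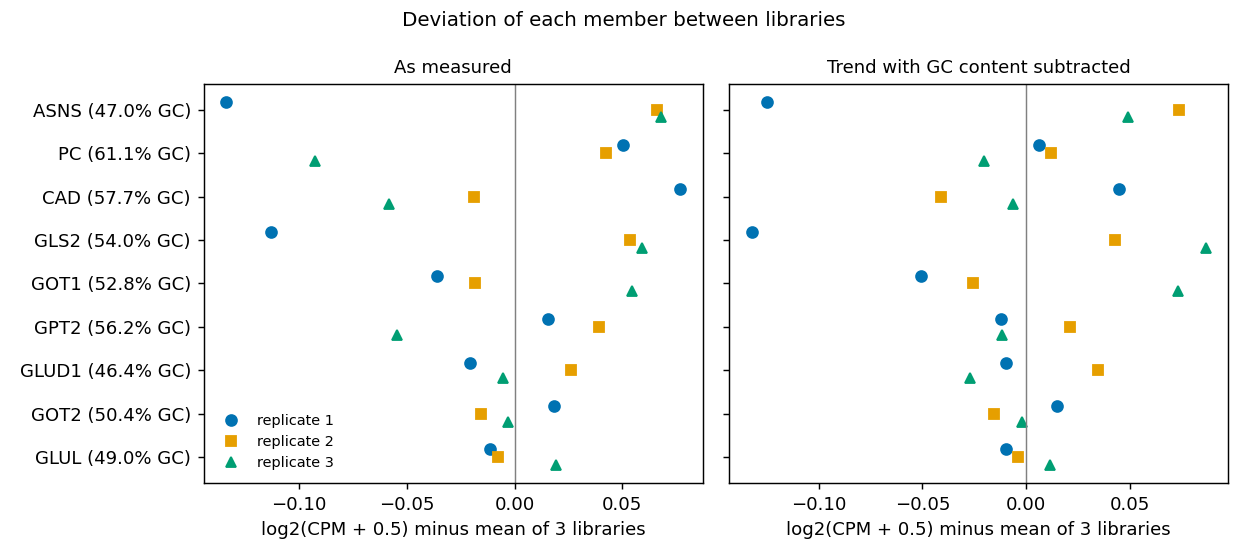
Deviation of each of the 9 genes from its mean over the 3 libraries, as log2(CPM + 0.5), measured (left) and with the library's fitted trend with GC content subtracted (right); symbols are libraries, and GC content is given beside each name. PC draws together from -0.09 to 0.05 on the left to -0.02 to 0.01 on the right, whereas ASNS in replicate 1 stays at -0.12.

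Around these 9 genes, 76 further genes of the pathway were measured in 10 lists, of which 65 reached 1 CPM in every library. Their median was 22.3 TPM, and 29 of the 69 that could be tested varied between libraries, 42.0% beside 28.5% of all genes. With GC offsets 14 of the 69 varied, beside 14.5% of all genes. The 69 were also the more abundant, with a median log2(TPM + 1) of 4.96 against 4.24 over all genes tested. The test detects smaller differences at higher counts, and how far this sets the shares was not tested. Of the 29, 11 were lowest in replicate 1, 7 in replicate 2 and 11 in replicate 3. Of all genes called, 29.2% were lowest in replicate 1, 28.5% in replicate 2 and 42.3% in replicate 3.

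The 10 transport genes spanned a wide range, with a median of 36.6 TPM. SLC7A5, which takes up large neutral amino acids in exchange for glutamine, stood at 329 ± 18.1 TPM, and SLC38A2, a sodium-coupled glutamine carrier, at 271 ± 18.01 TPM. The lowest was the glial glutamate carrier SLC1A2, with 8, 0 and 6 counts. Of 8 transport genes tested 6 varied, and 2 of these, SLC7A5 and SLC25A22, were called with GC offsets. Over all genes tested the shares called were 28.5% as measured and 14.5% with GC offsets. SLC7A5 and SLC1A5, with 61.1% and 61.3% GC, were lowest in replicate 3, and SLC38A1, SLC38A2 and SLC7A11, with 35.4% to 41.3% GC, were highest there. The mitochondrial glutamate carrier SLC25A22 was highest in replicate 1, at 59.02, 49.97 and 48.1 CPM (edgeR adjusted p = 1.62e-08).

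Among the other enzymes that take the amide of glutamine, CTP synthase (CTPS in the files) stood highest at 82.7 ± 2.18 TPM, followed by GFPT1 of hexosamine synthesis at 41.5 ± 1.69 TPM, and CPS1, listed with them although it uses free ammonia, was lowest. Of 9 tested 4 varied: PFAS and GMPS of purine synthesis, GFPT1 and CPS1. With GC offsets 0 of the 4 were called, and 1, CPS1, had an unadjusted p under 0.05 (0.017, edgeR adjusted p = 0.0914). As measured, CPS1 was lowest in replicate 1, at 14.9, 17.6 and 17.3 CPM (edgeR adjusted p = 0.0314). Of the other glutamate transaminases, OAT, which forms glutamate from ornithine, stood at 129 ± 3.02 TPM and PSAT1 of serine synthesis at 126 ± 5.37 TPM, while the liver enzyme TAT had no count. There 4 of 9 varied, namely PSAT1, BCAT2, AADAT and CCBL2, and of these PSAT1 and BCAT2 were called with GC offsets. The share called over all genes tested was 28.5% as measured and 14.5% with GC offsets.

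In the malate-aspartate shuttle the dehydrogenases were higher than the carriers. MDH1 stood at 291 ± 9.52 TPM and MDH2 at 187 ± 9.93 TPM, and the lowest was the aspartate-glutamate carrier SLC25A12, at 14.7 ± 0.459 TPM. MDH1, MDH2 and SLC25A11 varied, 3 of 5, beside 28.5% of all genes. MDH1 and MDH2 were called with GC offsets, a setting that called 14.5% of all genes. MDH1 was at 202, 218 and 206 CPM and MDH2 at 185, 186 and 166 CPM, so the cytosolic and the mitochondrial enzyme did not share a lowest library. Of 7 genes that use aspartate or follow CAD, ADSS and ADSL of purine synthesis were highest, at 86.3 ± 5.15 and 66.3 ± 1.35 TPM, and the muscle form ADSSL1 lowest, at 0.834 ± 0.136 TPM. ADSS and DHODH varied, and of these DHODH was called with GC offsets.

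On the routes from glutamate to proline and glutathione, the reductase PYCR1 stood at 82.7 ± 3.69 TPM. Proline oxidase, PRODH, was lowest at 0.555 ± 0.102 TPM. Of 8 tested 4 varied, among them PYCR1, PYCRL and GCLC, beside 28.5% of all genes. With GC offsets, which called 14.5% of all genes, 0 of the 4 were called by edgeR, adjusted or at an unadjusted p under 0.05. Breakdown of asparagine and aspartate derivatives was the list of lowest level, with ASRGL1 at 3.15 ± 0.430 TPM and no counts for ASPA and ASPG. NAT8L, listed with them although it makes, and does not break down, an aspartate derivative, stood at 0.730 ± 0.0916 TPM. Neither of the 2 genes tested there varied, with edgeR adjusted p of 0.370 for ASRGL1 and 0.524 for NAT8L, and 0 passed at an unadjusted p under 0.05. In pyruvate and oxaloacetate exchange ME3 stood at 62.1 ± 1.57 TPM, and HLCS, which attaches biotin to PC, had 1654, 2005 and 1337 counts. The length of HLCS was a gene median rather than that of its record, so its 71.1 TPM is uncertain. By edgeR 0 of the 7 genes tested in that list varied, and 1, PCK2, had an unadjusted p under 0.05 (0.0154, adjusted p = 0.0531).

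The amino acid response list, the genes that sense shortage and those induced with ASNS, had a median of 21.8 TPM over 12 genes. ATF4 stood at 263 ± 7.13 TPM, the serine enzyme SHMT2 at 196 ± 8.85 TPM and CHAC1, again on a gene median length, lowest at 7.39 ± 0.766 TPM. Of the 12, 5 varied (ATF4, SHMT2, PHGDH, VLDLR and the sensor kinase EIF2AK4), and all 5 were also called with GC offsets. Of all genes tested, 28.5% were called as measured and 14.5% with GC offsets. The list was chosen with earlier results of these data known, so these counts are a description. ATF4 was lowest in replicate 1 and highest in replicate 2, at 224, 238 and 230 CPM (edgeR adjusted p = 0.00154). SHMT2 was at 212, 229 and 206 CPM and PHGDH at 47.05, 51.8 and 46.3 CPM, both highest in replicate 2. VLDLR, a lipoprotein receptor, was also highest there, at 43.6, 49.1 and 45.5 CPM. EIF2AK4 was highest in replicate 1, at 114, 107 and 107 CPM. The stress genes TRIB3 (19.8, 20.5 and 20.03 CPM), DDIT3 (10.5, 9.69 and 10.1 CPM) and SESN2 (13.1, 14.01 and 13.1 CPM) were not called, with edgeR adjusted p of 0.890, 0.677 and 0.617.

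**Figure D4:**
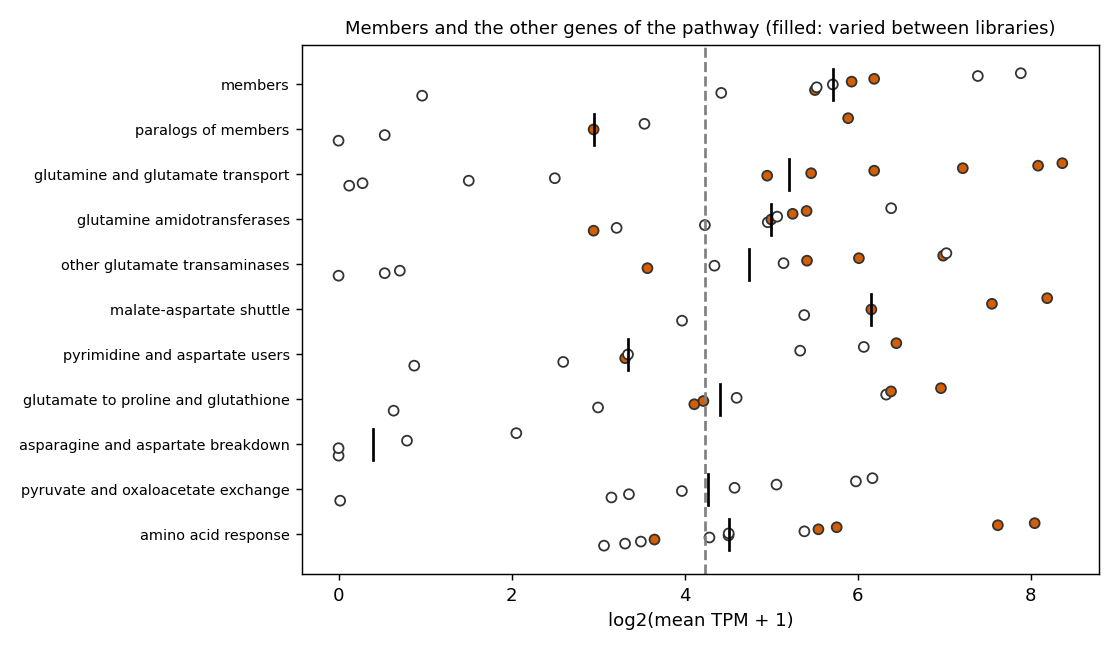
Mean level over the 3 libraries, as log2(TPM + 1), of the 9 genes (top row) and of the further pathway genes by list; each point is a gene, filled where it varied between libraries, the black bar is the list median and the dashed line the median of all 14469 genes tested (4.24). The 9 genes have a median of 5.71, and asparagine and aspartate breakdown has the lowest, 0.396.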

How the data were processed

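Per the labels' protocols, RNA went into TruSeq libraries read as pairs of 100 bp. The authors deposited whole-number counts per RefSeq record, not normalized; the submitters' processing notes name FastQC, TopHat2, Cufflinks and hg19. Versions, the counting tool, strand setting and treatment of reads with several hits are not given in the sources used here.

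Counts of records listed more than 1 time under 1 identifier were summed and the record with the largest total was kept for each gene. Of 6937 records without a symbol, 6318 were matched by accession, and the remainder held 0.944% to 0.959% of counts. More genes had a count of 2 (712, 637 and 580 genes) than of 1 (485, 401 and 379), and each pair was therefore taken as 2 counts.

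TPM used the GENCODE 29 length of the matching record, and CPM used edgeR 4.0.16 TMM factors (R 4.3.3). Variation was the deviance of an edgeR fit at dispersion 0, divided by 2 and set against a chi-square with 2 degrees of freedom, after filterByExpr, with Benjamini-Hochberg adjustment called at 0.05. Counts simulated as pairs with no variation beyond counting noise gave 58%, 74%, 94% and 98% recovery of changes of 1.25, 1.5, 2 and 3-fold in 1 library, with 7 false calls among 14495 genes. Shared sequence came from blastn 2.17.0 against GENCODE 29 transcripts. Plots used matplotlib 3.10.9.

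Alternatives covered normalization (DESeq2 1.42.0 size factors), filter, records, length, base composition, dispersion and each library left out. The members and lists were chosen with earlier results of these data known. Named are the 9 genes, their paralogs and, of each list, the 2 highest, the lowest and those that varied, except for a few items that are not reported here; UMPS, PCK2, TRIB3, DDIT3, SESN2, SPRYD4 and FAM35A were added after their values were seen. Nothing says that replicates came from separate cultures beyond the word biological, so p-values measure the spread between these libraries.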

Additional observations from a re-analysis of the deposited data

How the results depend on the processing

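The number of the 9 genes that varied was 3. It was 5 with the deviance undivided, 0 with a coefficient of variation of 0.05 allowed for, and 1 to 3 with a library left out. The count over all genes was 4117, against 7653, 7 and 2091 with the deviance undivided, the coefficient of variation allowed for and GC offsets, and 1298 to 3093 with a library left out. For the other pathway genes it was 29, against 44, 0 and 14 under the same settings, and 14 to 20 with a library left out. The median TPM of the 9 genes moved to 69.5 with counts summed over records and to 66.5 with the longest transcript lengths. Summing over records also put ASNS first in level, at 172 TPM, but this setting can count the same reads under several records. The median of the other pathway genes, 4.55 as log2(TPM + 1), was 4.49 with a pseudocount of 0.1 and 4.88 in CPM. With DESeq2 size factors, and with a filter that kept all genes with a count, 3 of the 9 genes were called. No paired comparison of conditions was possible because all libraries belong to 1 group, and ratios between genes were taken within each library. Depth limits GLS2 and GPT, whose counts were under 100 in each library.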
